A study of Mus musculus with 383 samples.

Results

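Calcitonin gene-related peptide (CGRP), the receptors of the calcitonin family and their partner proteins were examined in single nuclei of the dorsal motor nucleus of the vagus. The 7 genes were taken by name: Calca and Calcb, which encode the peptides, Calcr and Calcrl, which encode the receptors, and Ramp1, Ramp2 and Ramp3, which encode the receptor activity-modifying proteins (RAMPs). They are 7 of the 29779 genes in the count table, and all of them were in it. Values cover the 316 of 383 nuclei in which at least 1000 genes had a read.

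The dorsal motor nucleus of the vagus holds cholinergic neurons whose axons run in the vagus nerve to the organs of the chest and abdomen. All nuclei came from male Chat-IRES-Cre mice of the C57BL/6 strain, in which Cre recombinase is made where the choline acetyltransferase gene is active. The mice received 100 nL of AAV9-DIO-H2b-mCherry, a Cre-dependent virus that marks nuclei red, in that brainstem nucleus at 10 weeks of age, and tissue was dissected 16 days later. Red nuclei were sorted singly into wells of 96-well plates and sequenced with the Smart-seq2 method, which reads transcripts along their length. There was no untreated or control group, and every nucleus carried the same genotype and virus. Tissue was pooled and no animal is named, so the series counts as 1 sample: nuclei are not replicates, and the intervals given here cover counting error among nuclei or reads, not variation between animals.

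Calcrl on its own does not bind CGRP well. With RAMP1 it forms the CGRP receptor, and with RAMP2 or RAMP3 it forms receptors for adrenomedullin. Calcr is the calcitonin receptor, and with a RAMP it becomes a receptor for amylin, with RAMP1 also responding to CGRP. These receptors act mainly through the stimulatory G protein and cyclic AMP. CGRP is a peptide of sensory neurons and of the motor neurons that innervate muscle, and in the brainstem calcitonin and amylin signalling is known for its effects on feeding. The transcripts of Calca are spliced either to calcitonin or to the alpha form of CGRP, and gene-level counts do not separate these, so Calca reads are reads of the gene.

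Retained nuclei held 1590 to 4699420 reads with a median of 1440075, and a median of 11234.5 genes with a read. No nucleus had more than 10% of its reads on mitochondrial genes. The 67 nuclei left out held a median of 2328 reads. In them, Calca, Calcr, Calcrl and Ramp1 each had a read in 1 nucleus and the other members in none. Clustering without the members and their pathway genes gave 285 visceral motor-like nuclei, 22 somatic motor-like nuclei and a cluster of 9 that was left unnamed. At a common 500000 reads per nucleus, which kept 266, 22 and 7 of them, Chat was found in 97.0% of visceral and 95.5% of somatic motor-like nuclei. The mean share over the visceral motor markers was 58.3% in the visceral and 9.09% in the somatic class. Over the somatic motor markers it was 7.08% and 31.1%. Of these, Mnx1, which encodes a factor that specifies somatic motor neurons, was found in 0.376% of the visceral and 36.4% of the somatic class. Lhx4, Chodl and Uts2 were also higher in the somatic class. Lhx3 (3.01% and 4.55%) and Mmp9 (9.02% and 9.09%) hardly differed. The unnamed cluster had no motor neuron marker among its leading genes and carried reads of several other cell types. Its mean share was 57.1% over the vascular markers, against 26.6% in the visceral and 27.3% in the somatic class. Over the microglial markers it was 48.6%, against 11.0% and 12.7%. Cldn5, a vascular marker, was found in 0% of the unnamed nuclei, but also in only 2.26% of the visceral and 0% of the somatic class. The other vascular markers were all found at higher shares in the unnamed nuclei than in either class. Among them, Pecam1 was found in 100%, against 43.2% and 50.0%, and Flt1 in 85.7%, against 46.2% and 31.8%. The mean share of the unnamed cluster over the somatic motor markers was 35.7%, against 31.1% in the somatic class, with Lhx4 in 71.4% and Mnx1 in 28.6% of its nuclei.

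The CGRP genes were found in few nuclei, at high levels where they were found. Calca had at least 1 read in 29 nuclei (9.18%, Clopper-Pearson 95% interval 6.23 to 12.9) and Calcb in 30 (9.49%, 6.50 to 13.3). Summed over retained nuclei, the levels were 20.1 and 12.2 reads per 1000000 reads (RPM), or 11.9 and 9.67 RPM per kilobase of exon, the highest 2 of the 7 members on that scale. In nuclei with a read, Calca counts ran from 1 to 1790 with a median of 146, and Calcb counts from 1 to 1126 with a median of 99.5. The 10 nuclei with most reads held 85.3% of all Calca reads and 78.6% of all Calcb reads. At least 50 reads were found in 19 nuclei for Calca and 22 for Calcb, so most nuclei with a read held many.

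**Figure D1:**
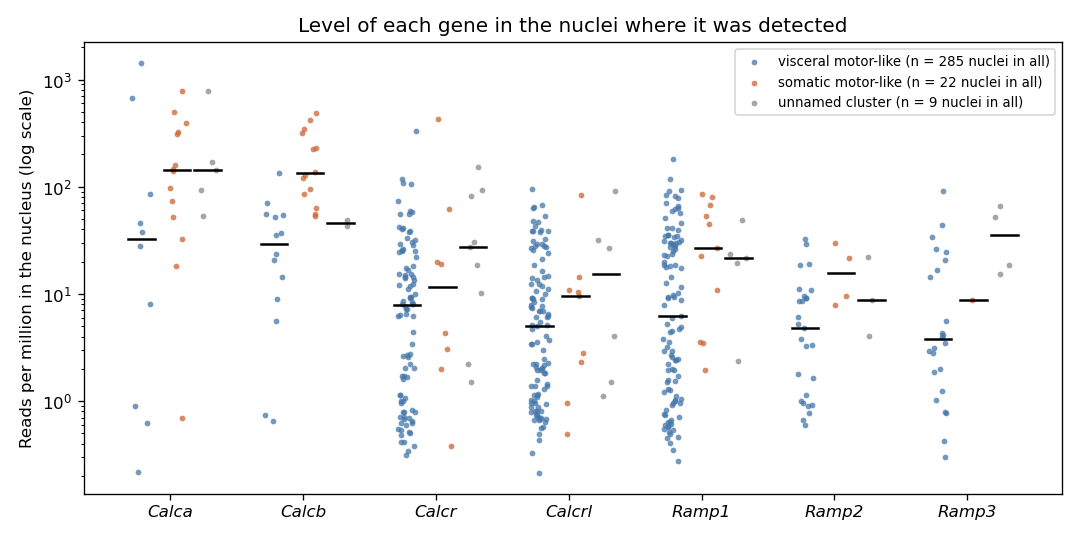
Level of each of the 7 genes in the nuclei with at least 1 read, in RPM on a log axis, with a point per nucleus coloured by class and a line at each class median. Calca and Calcb were found in few nuclei, with somatic medians of 142.1 and 133.9 RPM, while Calcr, Calcrl and Ramp1 were found in more nuclei at lower levels.

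Calca and Calcb lie on mouse chromosome 7 of GRCm38. Calca spans chr7:114631478-114636357 on the minus strand and Calcb chr7:114718643-114723365 on the plus strand, 82.285 kb apart. They are close copies, so reads may have been divided between them in counting, and the sources used here do not say how. The 250 bases before the start of Calca, chr7:114636358-114636607 read on the minus strand, are given with the same window of Calcr below to show the letters TGACG, the first 5 letters of the cAMP response element TGACGTCA, in capitals on either strand. Calcr encodes the calcitonin receptor and has more than 1 listed start; the window shown, chr6:3764714-3764963 on the minus strand, precedes the outer start. Sequences are from RefSeq GRCm38.p6, which held windows for 5 of the 7 genes. TGACG stood 65 bases before the start of Calca and 42 bases before the outer start of Calcr. A window before another Calcr start held 2 copies, 147 and 51 bases away, and the windows of Calcrl, Ramp1 and Ramp3 held none. It was in 17.8% of 32841 such windows of the mouse genome, and the full 8-letter element was in 1.55% of them and in none of the members' windows. A match of letters is a description, and the factor's binding was not measured.
Calca: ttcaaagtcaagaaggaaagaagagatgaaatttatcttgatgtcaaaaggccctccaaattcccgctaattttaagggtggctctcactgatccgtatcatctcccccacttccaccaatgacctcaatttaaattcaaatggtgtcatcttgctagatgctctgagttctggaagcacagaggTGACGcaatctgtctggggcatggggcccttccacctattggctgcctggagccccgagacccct
Calcr: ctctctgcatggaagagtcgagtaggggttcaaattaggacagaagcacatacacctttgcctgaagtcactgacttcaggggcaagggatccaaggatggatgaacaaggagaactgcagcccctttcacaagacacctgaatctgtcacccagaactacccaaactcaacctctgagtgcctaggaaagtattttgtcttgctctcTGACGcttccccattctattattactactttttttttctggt

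Calca and Calcb were found much more often in somatic motor-like nuclei than in visceral motor-like nuclei. Reads of Calca were present in 14 of the 22 somatic nuclei (63.6%, 40.7 to 82.8) and in 7 of 266 visceral ones (2.63%, 1.06 to 5.35), a difference of 61.0 percentage points (37.9 to 80.2). Calcb was found in 14 of 22 (63.6%) and 11 of 266 (4.14%, 2.08 to 7.28), a difference of 59.5 points (36.3 to 78.8). A gene was called higher or lower where the shares differed by at least 40 points and the intervals did not overlap. Calca and Calcb, 2 of the 7 members, were called higher in somatic motor-like nuclei, against 0.407% of the 29249 genes compared. The members were chosen with these higher shares already known, so the count is a description only. No member was called lower, against 0.499% of those genes. By intervals apart alone, the same 2 members were higher, against 1.64% of genes, and none lower, against 2.02%. No test was run, since nuclei are not replicates.

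Levels differed in the same way. The summed level of Calca was 159.2 RPM in somatic and 6.54 RPM in visceral motor-like nuclei, and 1 visceral nucleus held 52.1% of the visceral reads. Leaving out the nucleus with most reads from each class gave 117.9 and 3.14 RPM. Calcb was at 134.5 RPM in somatic and 1.65 RPM in visceral motor-like nuclei, and at 110.9 and 1.25 RPM without the highest nuclei. Where Calca was present in the somatic class, its level ran from 0.694 to 779.0 RPM with a median of 142.1. Among the 14 with Calcb it ran from 53.4 to 490.0 RPM with a median of 133.9. In every one of the 4 blocks of 96 nucleus numbers the share of each was higher in the somatic class. Calca was found in 5 of 6, 4 of 7, 1 of 3 and 4 of 6 somatic nuclei by block, and Calcb in 5 of 6, 4 of 7, 2 of 3 and 3 of 6. The labels do not tie nucleus numbers to plates.

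**Figure D2:**
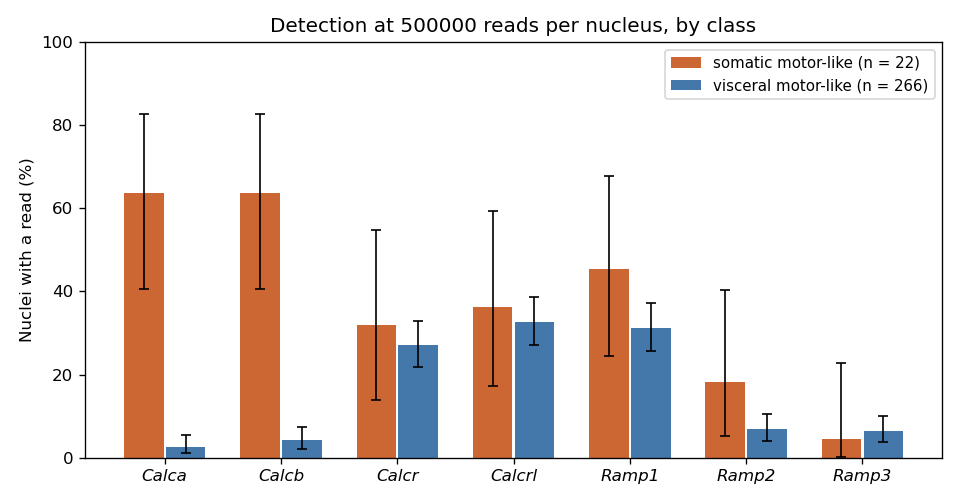
Shares of nuclei with at least 1 read of each gene, in somatic (n = 22) and visceral (n = 266) motor-like nuclei thinned to 500000 reads, with Clopper-Pearson 95% intervals. The intervals of Calca and Calcb are apart and those of the other 5 genes overlap.

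Either CGRP gene was found in 45 of 316 nuclei (14.2%, 10.6 to 18.6) and both in 14. Of those with both, 11 were somatic motor-like, 1 visceral motor-like and 2 unnamed. Either gene was found in 17 of 22 somatic motor-like nuclei (77.3%) and in 23 of 285 visceral ones (8.07%). In the 14 nuclei with both genes, the ratio of Calca to Calcb reads had a median of 1.40 and ran from 0.325 to 26.5. By reads, Calca was the higher in 9 and Calcb in 5, so neither gene was the higher in all of them. These reads were not divided by exon length, which is 1.684 kb for Calca and 1.264 kb for Calcb. The longer exons favour Calca in the ratio and in the split. A somatic nucleus with 1790 Calca reads also held 1126 Calcb reads, and another with 104 Calca reads held 320 Calcb reads. Yet another somatic nucleus had 365 Calcb reads and no Calca read. The visceral nucleus with the most Calca held 1458 Calca reads and 55 Calcb reads, and the next held 982 and none. The plot of Calca against Calcb levels shows all 45 nuclei.

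**Figure D3:**
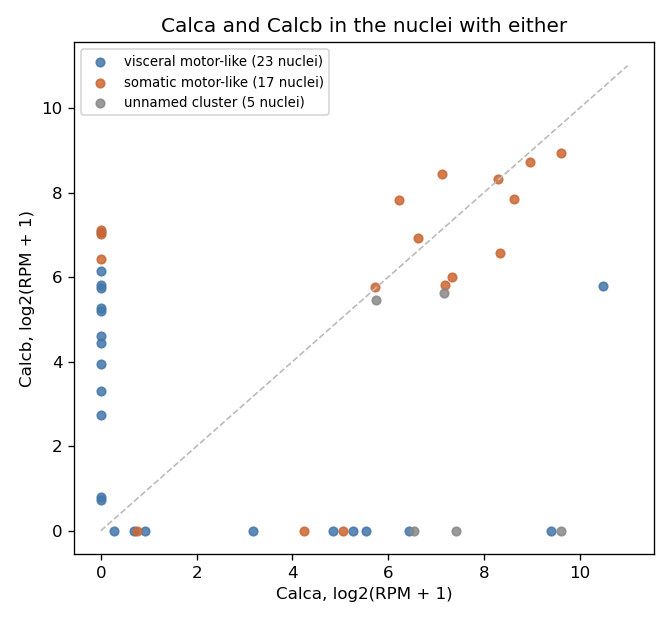
Calca and Calcb levels in the 45 nuclei with a read of either gene, as log2(RPM + 1), coloured by class, with a dashed line of equal levels. Of the 14 nuclei off the axes 11 are somatic motor-like, and 22 of the 23 visceral motor-like nuclei lie on an axis, with 1 of the genes at 0.

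The receptors were found in more nuclei than the peptides, at lower levels per nucleus. Calcr (chr6:3685680-3764714, minus strand) was found in 113 nuclei (35.8%, 30.5 to 41.3) and Calcrl (chr2:84330626-84425411, minus strand) in 126 (39.9%, 34.4 to 45.5). Their median counts in nuclei with a read were 9 and 5, and the highest were 619 and 158. Per kilobase of exon, Calcr was at 2.11 RPM and Calcrl at 1.02 RPM. Many of these detections were thin: 31 of the Calcr nuclei and 33 of the Calcrl nuclei had 1 read. With at least 5 reads required, each was found in 68 nuclei (21.5%).

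Neither receptor was called between the motor-like classes. Calcr was found in 31.8% of somatic and 27.1% of visceral motor-like nuclei, a difference of 4.75 points (-14.1 to 28.4). Its level was 23.1 against 5.83 RPM, but 1 somatic nucleus held 72.9% of the somatic reads, and without the highest nucleus of each class the levels were 6.50 and 5.14 RPM. Calcrl was found in 36.4% and 32.7%, a difference of 3.66 points (-16.4 to 27.3). Its level was 6.71 RPM in somatic and 4.55 RPM in visceral motor-like nuclei, and without the highest nuclei 2.55 and 4.23 RPM, the other way round. These intervals are wide enough to hold differences of over 20 points in favour of the somatic class. By block of nucleus numbers, Calcr was found in 48.8% (37.4 to 60.2), 28.8%, 27.0% (17.4 to 38.6) and 37.8% of retained nuclei, and its share was higher in the somatic class in 2 of the 4 blocks. All 7 unnamed nuclei at that depth had a Calcr read (100%, 59.0 to 100), and their shares of markers of other cell types, given above, were high.

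Ramp1 was the RAMP gene found in most nuclei. It was found in 125 nuclei (39.6%, 34.1 to 45.2), Ramp2 in 34 (10.8%, 7.57 to 14.7) and Ramp3 in 29 (9.18%, 6.23 to 12.9). Median counts in nuclei with a read were 13, 8.5 and 7. Per kilobase of exon, Ramp1 was at 2.75 RPM, Ramp3 at 0.889 RPM and Ramp2 at 0.286 RPM. Ramp1 (chr1:91179822-91225196, plus strand) is therefore the highest of the 3 on that scale, above Calcr and Calcrl. The scale assumes that only exon reads were counted, which the sources used here do not say. Undivided levels were 8.32 RPM for Ramp1, 8.25 RPM for Calcr and 4.96 RPM for Calcrl. Ramp2 (chr11:101246028-101259546, plus strand) shares 1103 exon bases with Vps25 on the same strand, so its reads are uncertain. Ramp3 (chr11:6658521-6677475, plus strand) overlaps 101 exon bases of the pseudogene Gm11978 on the other strand, and the use of strand in counting was not given in the sources used here.

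No RAMP gene was called between the motor-like classes. Ramp1 was found in 45.5% of somatic and 31.2% of visceral motor-like nuclei, a difference of 14.3 points (-7.64 to 37.3), with levels of 19.3 and 7.32 RPM. Ramp2 was found in 18.2% and 6.77%, a difference of 11.4 points (-2.10 to 33.7), and Ramp3 in 4.55% and 6.39%, a difference of -1.85 points (-7.58 to 16.6). The 22 somatic nuclei limit these intervals, and differences of either direction lie within all 3.

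Visceral motor-like nuclei divided into 11 clusters of 11 to 37 thinned nuclei, and members differed among them. A member was called where the highest and lowest cluster shares met the same rule as above. Calcr and Ramp1, 2 of the 7 members, were called, against 12.8% of 29013 genes. Ramp1 was found in 12 of 19 nuclei (63.2%, 38.4 to 83.7) of cluster 7, led by Nox1, and in 2 of 18 (11.1%, 1.38 to 34.7) of cluster 8, led by Npnt and Hcrtr2. Its level was 24.3 RPM in cluster 7, 14.5 RPM in cluster 1, led by Rgs4 and Grp, and 1.74 RPM in cluster 8. Shares of 58.8%, 54.5% and 40.6% were found in clusters 6, 1 and 5, and of 12.1% to 18.9% in clusters 2, 3, 4 and 10. The Ramp1 intervals of clusters 7 and 1 overlapped.

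Calcr was found in 9 of 11 nuclei (81.8%, 48.2 to 97.7) of cluster 11, led by Txnip and Dsp, and in 1 of 19 (5.26%, 0.13 to 26.0) of cluster 7. Cluster 11 was also high in markers of other cell types, with mean shares of 54.5% over astrocyte, 25.5% over microglial and 45.5% over vascular markers, and their part in the Calcr share was not tested. Without clusters 6 and 11 and the unnamed nuclei, 43 in all, the highest Calcr share was 44.4% in cluster 8 and Calcr was no longer called. Ramp1 was then still called, against 6.35% of 28648 genes. Without thinning, 5 members were called (Calcr, Calcrl, Ramp1, Ramp2 and Ramp3), against 10.9% of 29561 genes. Calcrl ran from 21.1% in cluster 7 to 72.7% in cluster 11 at the common depth, with overlapping intervals. Calcb, the peptide gene, was found in 31.6% (12.6 to 56.6) of cluster 7 and in at most 18.2% of any other visceral cluster.

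**Figure D4:**
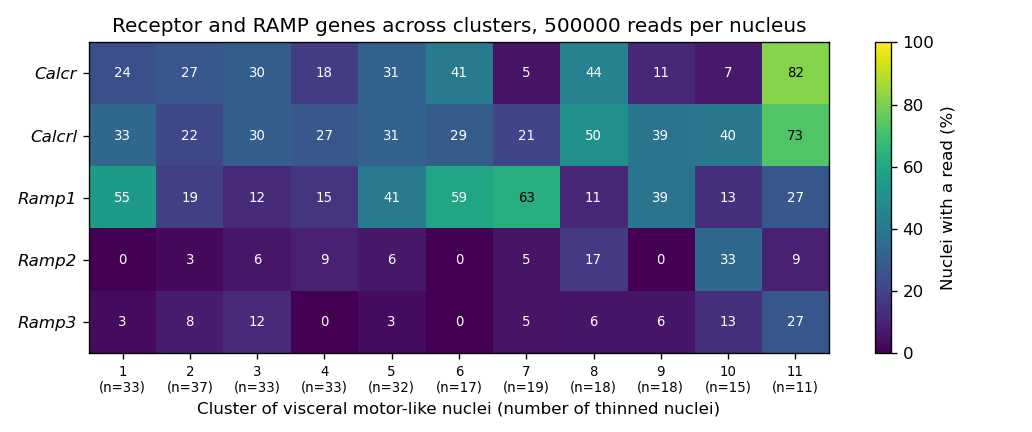
Share of thinned nuclei with at least 1 read of the 5 receptor and RAMP genes (colour and number, in percent) in the 11 clusters of visceral motor-like nuclei. Ramp1 is high in clusters 7, 6 and 1 and low in clusters 3 and 8, while Calcr is highest in cluster 11 and low in clusters 7 and 10.

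Reads of a receptor gene and a RAMP gene met in a minority of nuclei. Any of the 2 receptors was found in 182 nuclei (57.6%), any RAMP in 165 (52.2%), and a receptor together with a RAMP in 104 (32.9%). At the common depth the last was 70 of 295 (23.7%), with 9 of 22 somatic (40.9%, 20.7 to 63.6) and 56 of 266 visceral motor-like nuclei (21.1%, 16.3 to 26.5), whose intervals overlapped. A RAMP without a receptor was found in 61 (19.3%), and none of the 5 genes in 73 (23.1%). Ramp1 was the only RAMP found in 109 nuclei, and 2 or more RAMPs were found in 20 (6.33%). A read in the nucleus does not show that the proteins are made or that they pair.

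Calcrl with Ramp1, the components of the CGRP receptor, was found in 52 nuclei (16.5%). Calcr with Ramp1 was found in 53 (16.8%), and the 2 receptors together in 57 (18.0%). The adrenomedullin receptor components were rarer, Calcrl with Ramp2 in 17 (5.38%) and Calcrl with Ramp3 in 19 (6.01%). Calcr with Ramp2 was found in 18 (5.70%) and with Ramp3 in 15 (4.75%). In the 52 nuclei with Calcrl and Ramp1, the median Calcrl level was 6.49 RPM and that of Ramp1 19.0 RPM. In 22 of them both genes had at least 5 reads, and in 16 at least 1 of the genes had a single read.

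At the common depth, Ramp2, Ramp3 and Calcrl were found at higher shares in nuclei with Calcr, by differences whose own intervals lay above 0. The intervals of the 2 shares overlapped for every pair, and the difference intervals held 0 when 5 reads were required. Across genes in general, 65.4% had a higher share in visceral motor-like nuclei with Calcr than in those without, and 68.8% by Calcrl. At the common depth Ramp1 was found in 40.4% (30.7 to 50.7) of nuclei with Calcrl and 28.6% (22.4 to 35.4) of those without, a difference of 11.8 points (-0.093 to 23.9). Without thinning the shares were 41.3% and 38.4%. By Calcr the Ramp1 shares were 32.6% and 32.5%, a difference of 0.02 points (-11.8 to 12.7). Ramp2 was found in 15.1% of nuclei with Calcr and 5.26% without, a difference of 9.85 points (1.97 to 19.6), with share intervals of 8.30 to 24.5 and 2.66 to 9.22. Ramp3 was found in 12.8% and 4.78%, a difference of 8.01 points (0.689 to 17.3). The other receptor, Calcrl, was found in 44.2% and 29.2%, a difference of 15.0 points (2.39 to 27.7). In visceral motor-like nuclei alone the differences by Calcr were 5.96 points (-1.48 to 15.9) for Ramp2, 6.47 points (-0.89 to 16.4) for Ramp3 and 16.1 points (2.49 to 29.8) for Calcrl. By Calcrl, the difference was 2.96 points (-3.91 to 11.3) for Ramp2 and 4.49 points (-2.16 to 12.7) for Ramp3. Without the unnamed nuclei and clusters 6 and 11, the thinned shares with and without Calcr were 38.1% and 29.4% for Calcrl. They were 15.9% and 5.58% for Ramp2 and 7.94% and 5.08% for Ramp3. With 5 reads required and no thinning, Calcrl differed by 10.1 points (-1.73 to 23.2) by Calcr. Ramp2 then differed by 2.78 points (-3.88 to 12.5) and Ramp3 by 6.26 points (-0.613 to 16.3). Within visceral motor-like nuclei, none of the 6 other members had intervals apart when nuclei were divided by Calcr, where 3.09% of 29012 genes were higher and 0.148% lower. The same count was 0 of 6 by Calcrl, with 1.87% higher and 0.031% lower, and 0 of 6 by Ramp1, with 0.452% higher and 0.0448% lower. Shares of RAMPs by receptor are in the plot of co-detection.

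**Figure D5:**
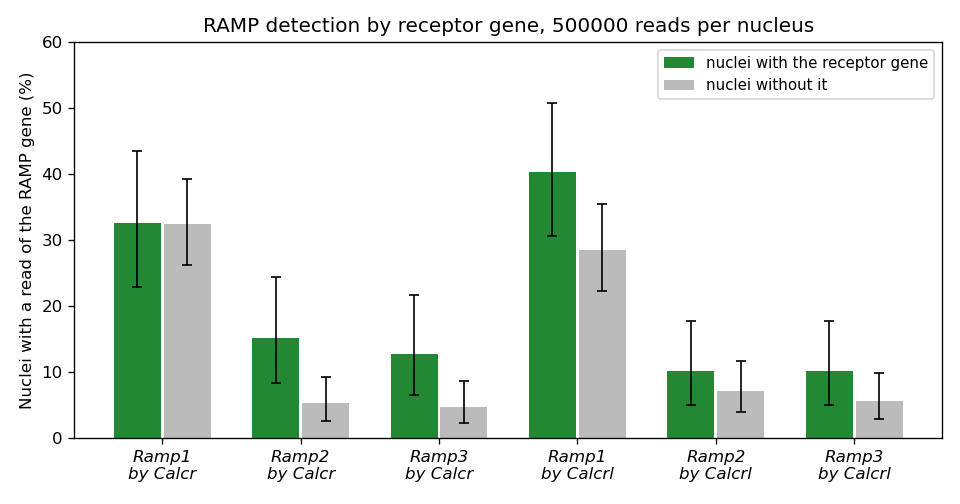
Share of thinned nuclei with each RAMP among nuclei with and without a receptor read, with Clopper-Pearson 95% intervals. Intervals of nuclei with and without the receptor overlap for every pair.

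The mean share over vascular markers was higher in nuclei with Calcrl or Calcr, and most genes also had higher shares there. The sizes differed. Among visceral motor-like nuclei, the median difference over genes with shares above 10% was 2.57 points by Calcrl and 2.08 points by Calcr. In the same nuclei the mean vascular shares with and without Calcrl were 31.8% and 24.0%, and by Calcr 35.2% and 23.3%. Over all nuclei at the common depth, the mean share over the 8 vascular markers was 33.0% with Calcrl and 24.5% without, and 36.9% and 23.4% by Calcr. Their summed level ran from 0 to 732 RPM with a median of 48 in nuclei with Calcrl, and from 0 to 1188 RPM with a median of 32 in those without. Each of the 8 markers was found at a higher share in nuclei with Calcrl, such as Tek (83.8% against 68.4%) and Flt1 (54.5% against 41.8%). Cldn5, a defining gene of the blood-brain barrier endothelium, was near the floor, at 0.0949 RPM. It was found in 3 of 99 nuclei with Calcrl and 3 of 196 without, too few to compare. Of the nuclei with Calcrl, 7 had no vascular marker read. For Ramp2, a gene of endothelium as well, the mean shares were 28.1% and 27.3%. Other lists moved as well: among visceral motor-like nuclei the mean shares with and without Calcr were 17.8% and 8.45% over microglial, 23.1% and 10.8% over glutamatergic and 26.1% and 18.4% over astrocyte markers. By Calcrl they were 10.6% and 11.2%, 16.5% and 13.0%, and 25.7% and 17.9%. The part of RNA from other cell types in these detections was not tested.

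All 5 receptor and RAMP genes were found together in 3 nuclei. Of these, 2 were unnamed and 1 was in visceral cluster 11, and they had 13024 to 14330 genes with a read, above the median of 11234.5. A CGRP gene together with Calcrl and Ramp1 was found in 12 nuclei (3.80%), 5 of the 22 somatic motor-like nuclei (22.7%) and 6 of the 285 visceral ones. Calcrl with Ramp1 was found in 6 of 22 somatic (27.3%, 10.7 to 50.2) and 32 of 266 visceral motor-like nuclei (12.0%, 8.38 to 16.6) at the common depth, with overlapping intervals. Ramp1 was found in 15 of 27 nuclei with Calcb (55.6%, 35.3 to 74.5) and in 30.2% (24.8 to 36.1) of the others. The difference was 25.3 points (4.26 to 45.1), and in visceral motor-like nuclei alone 24.3 points (-7.40 to 53.6). Without thinning the difference by Calcb was 18.9 points (-1.22 to 37.6). With 5 reads required and no thinning, the shares by Calcb were 53.8% (33.4 to 73.4) and 22.4% (17.7 to 27.7), with intervals apart. That difference was 31.4 points (10.3 to 51.5). By Calca the shares lay the other way at the common depth, with Ramp1 in 25.0% of nuclei with Calca and 33.2% of the others. The difference was -8.21 points (-24.6 to 14.2). Without thinning the shares by Calca were 37.9% and 39.7%, and with 5 reads required they were 33.3% and 24.3%. The direction by Calca thus changed with the setting.

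Genes of the pathway were measured from a list of 45, of which 44 were in the table. Adm2 was not found under that name. Of the 44, 34 (77.3%) were found in more than 50% of retained nuclei, against 35.1% of all genes. Coupling and accessory genes were all above 50%: Gnas, the stimulatory G protein, in 96.5%, Gnaq in 99.7% and Crcp, the CGRP receptor component protein, in 86.4%. Adcy2 and Adcy9, adenylyl cyclases that make cyclic AMP, were found in 98.4% and 96.8%, and 8 of 9 cyclases were above 50%. All 4 peptide-maturation genes were above 50%, with Pam, which amidates peptides, in 99.4% and Cpe in 98.7%. The splicing factors Rbfox1 and Rbfox2 were found in 99.7% and 98.7%.

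Other peptides of the family were rare. Adm, which encodes adrenomedullin, was found in 3.48% and Iapp, which encodes amylin, in 0.633%. Of the other 8 class B receptors, Adcyap1r1, the PACAP receptor, was found in 92.7% and Crhr1 in 46.5%, and only Adcyap1r1 was above 50%. Between classes, 3 of the 44 genes were called higher in somatic motor-like nuclei, against 0.407% of all genes compared. These were Adcy1 (95.5% against 42.9%), Adcy8 (100% against 42.5%) and Vipr2, a receptor for vasoactive intestinal peptide (54.5% against 12.8%). Pcsk1, a prohormone convertase that cuts peptide precursors, was the 1 gene called lower (31.8% against 94.7%), against 0.499% of all genes. The median difference over the list was 0.00 points, against -0.75 over all genes, and the list was not tested.

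The genes most like each member across 266 visceral motor-like nuclei were found by Spearman's rho among 13677 genes, as a description. For Calcr these were Homer3 (0.38), Catsperb (0.36) and Spata16 (0.35). For Calcrl they were Ccdc129 (0.33), Gm35998 (0.31) and Fabp12 (0.30), and for Ramp1 they were Ntsr1 (0.29), Rgs3 (0.27) and Parva (0.27). Between members rho was 0.14 for Calcr and Calcrl, 0.11 for Calcrl and Ramp1, and -0.0045 for Calcr and Ramp1. The nuclei share a library preparation and differ in gene content, so these values carry no p.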

How the data were processed

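The table holds counts deposited by the authors: 1 column for each of 383 nuclei and 29779 gene symbols, holding whole numbers of reads without normalisation. The genome build was GRCm38, per the submitters' processing notes. The tools bcl2fastq, STAR, Picard, edgeR and Seurat (version 3) are named, per the submitters' processing notes, without roles. How reads were assigned to genes, with which annotation and whether by strand, is not given in the sources used here. Libraries were made with 22 cycles of amplification and no molecular identifiers, per the labels' protocols, so reads are not independent molecules. The protocol text speaks of sections around the SCN, while the tissue label is the dorsal vagal motor nucleus.

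The 7 members and all lists were chosen with earlier results of these data known, and the higher shares of Calca and Calcb in somatic motor-like nuclei were among those results. Nuclei needed 1000 genes with a read. Shares carry Clopper-Pearson 95% intervals and summed levels were computed per 1000000 reads of the nuclei summed, with exact Poisson intervals. For comparisons each nucleus was thinned to 500000 reads, which left out 21 of 316. Nuclei were clustered with scanpy 1.11.5 (counts scaled to 10000 and log-transformed after adding 1, 2000 variable genes, 15 components, 10 neighbours, Leiden resolution 1), leaving out the members, their pathway list, and mitochondrial and ribosomal genes, 154 genes in all. Classes were named from 6 cholinergic, 5 visceral and 6 somatic motor markers that held no member. Requiring a motor marker among the 10 leading genes of a cluster called somatic was added after seeing the data, and left 9 nuclei unnamed. A difference was called at 40 points with intervals apart, over clusters of at least 8 nuclei. No doublet caller was run: nuclei were sorted singly. The code that makes the calls was checked on simulated counts, and no hypothesis test was run. Gene positions are from GENCODE M21 on GRCm38. The members named were all 7; pathway genes were named from that list and genes of like pattern as the 3 with the highest rho found in 10% to 90% of nuclei.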

Additional observations from a re-analysis of the deposited data

How the results depend on the processing

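The calls of Calca and Calcb between classes held in all 8 settings, the main one included, and the differences of the other 5 members stayed within their intervals. The settings draw on the same nuclei. With the unnamed nuclei counted as somatic, Ramp3 turned from -1.85 to 7.40 points and Calcr went from 4.75 to 21.2. With nuclei thinned to fewer reads, Calcrl turned from 3.66 to -4.33 points and Ramp3 to 0.117. None of these was called. Across visceral clusters Calcr lost its call without the 43 nuclei of the unnamed cluster and clusters 6 and 11, a choice made after seeing the data. Clusters 6 and 11 had the highest mean shares over astrocyte, microglial and vascular markers among visceral clusters. The clusters kept held such reads too, with mean vascular shares from 19.1% in cluster 7 to 31.9% in cluster 8. No thinning raised the number of called members from 2 to 5. Requiring 5 reads gave shares of 21.5% for Calcr, 21.5% for Calcrl, 25.0% for Ramp1, 6.65% for Ramp2 and 5.38% for Ramp3. It gave co-detection of 5.06% for Calcr with Ramp1, 1.90% with Ramp2 and 2.22% with Ramp3, and of 6.96%, 1.90% and 1.27% for Calcrl with Ramp1, Ramp2 and Ramp3. Thinning gave 29.2% for Calcr, 33.6% for Calcrl, 32.5% for Ramp1, 9.49% for Calcr with Ramp1 and 3.39% for Calcrl with Ramp3. Without the 43 nuclei, Calcr with Ramp3 was 2.56%. The mean of per-nucleus RPM was 20.8 for Calca, 10.7 for Calcb, 8.88 for Calcr, 5.23 for Calcrl, 8.67 for Ramp1 and 1.49 for Ramp3. A looser and a stricter minimum of genes per nucleus moved none of the shares. No paired analysis was possible because the series holds a single group of nuclei. Depth limits what an absent read means, since a nucleus without a read may still hold the transcript, and 22 somatic nuclei from pooled tissue limit every class comparison.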
